A study of Rattus norvegicus with 138 samples.

Results

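The proteasome subunit genes are the 47 entries, of 16181 usable gene symbols in the table, whose symbol is Psma, Psmb, Psmc, Psmd, Psme, Psmf or Psmg followed by a number. No measured value entered this choice. Volumetric muscle loss (VML) was made in the left tibialis anterior (TA) muscle of each operated Lewis rat by removing a plug of muscle with a biopsy punch, and RNA-Seq was done on TA muscle at 3, 7, 14 and 28 days post injury (DPI). All rats were inbred males of about 4 months. The non-repaired injured muscles of non-running rats, the main injured group, numbered 3, 8, 4 and 4 over the 4 days, and the contralateral, uninjured TA muscles of some of these rats 2, 4, 2 and 2. Muscles repaired with autologous minced muscle grafts (MMG), made from the tissue that had been cut out, numbered 7, 8, 4 and 4, with 2, 6, 2 and 2 contralateral muscles. Rats labelled as running gave 8, 4, 4 and 2 non-repaired and 6, 4, 4 and 2 grafted injured muscles, with 2 contralateral muscles in each at 3, 7 and 14 DPI and none at 28 DPI. What the running consisted of is not given in the sources used here. The control group was the left and right TA muscles of 2 rats (4 muscles), which the labels call sham at day 0. The study's results section calls the controls unoperated, its methods uninjured, and a figure legend names a sham group. These 2 rats carry numbers of another series than all operated rats, so series and injury cannot be told apart in a comparison with control muscle, and the contralateral muscles serve as the reference within the operated series.

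Values are TPM, transcript abundances corrected for transcript length and scaled to the same total in each library. The 116 libraries kept came from 114 muscles of 78 rats and held 7866 to 10948 symbols above 1 TPM. Another 13 libraries with 901 to 5712 such symbols were left out, and with them the only library of 1 contralateral muscle at 7 DPI and the only library of another for which the labels give an unconflicting group. Leukocyte, fibroblast and muscle fibre markers moved strongly with injury. In the main injured group at 3 DPI, 15 of 16 tested leukocyte markers and 9 of 9 fibroblast markers were called higher than in control muscle, where 48.3% of all tested genes were. Of the fibre markers 12 of 12 were called lower, against 4.24% of all tested genes. The summed level of the 17 listed leukocyte markers was 4945 to 6683 TPM against 20.6 to 46.0 TPM in control muscle. None of the lists' genes was at 0 in every muscle. The fibre markers summed to 52703 to 71125 TPM at 3 DPI and 256620 to 324100 TPM in control muscle, where the defining genes of fast TA fibres were abundant. A higher level of a transcript in bulk muscle can come from more cells that express it or from more RNA per cell, and these cannot be told apart here. The part of these shifts in the results on proteasome genes was not tested.

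The proteasome degrades proteins that carry ubiquitin. Its 20S core is a barrel of stacked rings, with outer rings of α subunits (Psma genes) and inner rings of β subunits (Psmb genes), of which β1 (Psmb6), β2 (Psmb7) and β5 (Psmb5) hold the proteolytic sites. Interferon γ induces alternative catalytic subunits, β1i (Psmb9, also called Lmp2), β2i (Psmb10, Mecl1) and β5i (Psmb8, Lmp7), which replace them in newly assembled particles to form the immunoproteasome. The 19S particle, built from ATPases (Psmc) and non-ATPase subunits (Psmd), binds, unfolds and feeds in ubiquitinated substrates, while the 11S activator PA28αβ (Psme1 and Psme2), also induced by interferon γ, opens the core and favours the release of peptides for class I antigen presentation. In skeletal muscle the ubiquitin-proteasome pathway is a main route for breaking down contractile proteins during atrophy.

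The promoters are shown first, since the ratio of each catalytic immunoproteasome gene to the gene it replaces was higher in the main injured group than in control muscle on each day. RefSeq (GRCr8) promoters were matched for 42 of the 47 genes, and not for Psma7, Psmb11, Psmd6, Psmd12 and Psmd14. The 250 bases before the start site used in the RefSeq promoter sequences are given 5′ to 3′ on the strand of the gene, and positions are counted from that site. In RefSeq the gene itself begins further upstream for 5 of these genes, by 9 bases for Psme1, 18 for Psmb8, 36 for Psmb6, 48 for Psmb9 and 304 for Psme2, so that the Psme2 window lies wholly inside the annotated gene. Capitals mark matches, on either strand, to the core of the interferon-stimulated response element (GAAA repeated after a gap of 2 bases), the interferon γ activated site (TTCNNNGAA) or the antioxidant response element (TGACNNNGC), the last being the kind of element through which Nfe2l2 and Nfe2l1 act on proteasome genes.
Psmb8, chr20:4657032-4657281 (minus strand): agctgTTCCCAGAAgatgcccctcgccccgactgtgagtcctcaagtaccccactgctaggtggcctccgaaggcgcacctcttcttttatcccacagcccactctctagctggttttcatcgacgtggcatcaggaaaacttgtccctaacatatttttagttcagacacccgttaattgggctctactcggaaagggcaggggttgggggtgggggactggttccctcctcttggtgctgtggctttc
Psmb9, chr20:4668750-4668999 (plus strand): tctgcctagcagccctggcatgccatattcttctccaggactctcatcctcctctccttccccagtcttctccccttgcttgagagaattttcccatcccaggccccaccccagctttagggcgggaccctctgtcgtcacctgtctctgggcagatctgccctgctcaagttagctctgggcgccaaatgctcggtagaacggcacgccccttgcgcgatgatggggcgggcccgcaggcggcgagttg
Psmb10, chr19:50743293-50743542 (minus strand): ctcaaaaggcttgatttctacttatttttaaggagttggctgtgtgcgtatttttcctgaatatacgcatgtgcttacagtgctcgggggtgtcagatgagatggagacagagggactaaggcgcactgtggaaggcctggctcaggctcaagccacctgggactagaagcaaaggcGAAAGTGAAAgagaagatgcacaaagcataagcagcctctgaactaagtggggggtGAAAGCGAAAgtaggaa
Psme1, chr15:33038721-33038970 (plus strand): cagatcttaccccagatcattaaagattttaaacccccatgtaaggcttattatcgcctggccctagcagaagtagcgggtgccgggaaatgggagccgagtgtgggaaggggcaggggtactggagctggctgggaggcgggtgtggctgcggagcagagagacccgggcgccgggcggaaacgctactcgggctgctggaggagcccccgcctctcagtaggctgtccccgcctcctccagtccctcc
Psme2, chr15:33052752-33053001 (minus strand): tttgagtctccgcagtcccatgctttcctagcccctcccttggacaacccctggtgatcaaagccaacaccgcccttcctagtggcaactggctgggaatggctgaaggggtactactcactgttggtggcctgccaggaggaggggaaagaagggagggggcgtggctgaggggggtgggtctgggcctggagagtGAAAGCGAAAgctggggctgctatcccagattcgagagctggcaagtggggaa
Psmb5, chr15:32047380-32047629 (minus strand): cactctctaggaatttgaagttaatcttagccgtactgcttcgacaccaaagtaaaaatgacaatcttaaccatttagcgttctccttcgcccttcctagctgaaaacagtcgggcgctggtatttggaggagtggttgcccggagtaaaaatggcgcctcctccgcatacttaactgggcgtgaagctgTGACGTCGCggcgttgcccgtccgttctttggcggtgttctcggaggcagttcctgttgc
Psmb6, chr10:55737638-55737887 (plus strand): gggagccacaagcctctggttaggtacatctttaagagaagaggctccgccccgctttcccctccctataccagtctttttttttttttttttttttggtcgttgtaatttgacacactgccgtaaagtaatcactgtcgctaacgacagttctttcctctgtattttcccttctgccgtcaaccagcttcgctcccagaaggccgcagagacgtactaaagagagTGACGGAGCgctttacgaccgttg
Psmb7, chr3:42827471-42827720 (minus strand): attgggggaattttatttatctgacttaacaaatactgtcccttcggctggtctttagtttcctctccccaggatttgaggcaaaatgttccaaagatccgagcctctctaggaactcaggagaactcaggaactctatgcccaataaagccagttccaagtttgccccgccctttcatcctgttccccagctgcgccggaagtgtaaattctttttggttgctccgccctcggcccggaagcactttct
The repeated GAAA stood in 5 of 42 proteasome promoters (11.9%) and in 3.41% of all 33469 promoters of this length. They occurred at -73 to -64 and at -17 to -8 from the start site of Psmb10, at -53 to -44 in Psme2, and also in Psma4, Psmb3 and Psmd7. TTCNNNGAA was found in 4 proteasome promoters (9.52%, against 7.67% of all), at -245 to -237 in Psmb8. TGACNNNGC was found in 7 (16.7%, against 10.1% of all), at -60 to -52 in Psmb5 and -24 to -16 in Psmb6, and in none of the 5 immunoproteasome genes. A CCAAT box, not capitalised, was in 19 (45.2%, against 34.0% of all). The windows of Psmb9, Psme1 and Psmb7 held none of the first 3 motifs, that of Psmb7 holding a CCAAT box at -109 to -105 and, on the opposite strand, at -250 to -246. Psmb8 and Psmb9 lie on chromosome 20 beside the peptide transporter genes Tap2 and Tap1, and the start sites of Tap1 and Psmb9 in the promoter sequences are 457 bases apart on opposite strands. These matches describe letters only.

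In control muscle the catalytic immunoproteasome subunits were low. Psmb8 stood at 4.0, 3.85, 4.72 and 3.27 TPM in the 4 control muscles, Psmb9 at 4.43, 2.92, 5.1 and 3.16 TPM and Psmb10 at 11.7, 13.5, 15.0 and 11.3 TPM. The subunits they replace were far more abundant on the same per-length scale, with control means of 232 TPM for Psmb5, 321 TPM for Psmb6 and 332 TPM for Psmb7.

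At 3 DPI the catalytic immunoproteasome subunits rose more than any other proteasome gene. Psmb9 reached 87.3, 78.7 and 57.2 TPM in the 3 non-repaired injured muscles, a log2 fold change over control muscle of 3.95 (SE 0.25, limma adjusted p = 6.1e-26). Psmb8 reached 67.2, 56.5 and 47.2 TPM (log2 fold change 3.54, SE 0.22, limma adjusted p = 2.0e-26). Psmb10 reached 97.1, 81.1 and 66.2 TPM (log2 fold change 2.56, SE 0.17, limma adjusted p = 2.5e-25). All injured muscles stood far above all control muscles for each of these genes. The 11S activator genes rose as well, Psme1 from 104 ± 14.1 TPM (SD, n = 4) to 264 ± 36.2 TPM (SD, n = 3), a log2 fold change of 1.34, and Psme2 from 42.9 ± 10.3 to 126 ± 18.6 TPM, a log2 fold change of 1.55. With median-of-ratios size factors, a scaling that centres all genes near 0, both of these calls were lost, with Psme1 at 0.20 (limma adjusted p = 0.26) and Psme2 at 0.42 (limma adjusted p = 0.027).

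The catalytic subunits of the standard core moved little in comparison. Psmb5 was 310, 281 and 275 TPM in the 3 injured muscles at 3 DPI, a log2 fold change of 0.32 (SE 0.14), and Psmb7 was 453, 477 and 462 TPM, a log2 fold change of 0.48 (SE 0.14). Both differences passed an adjusted p of 0.05 without reaching the fold threshold. Psmb6 was 381, 361 and 333 TPM and overlapped control muscle, where 1 of the 4 muscles stood at 389 TPM and the others at 291 to 305 TPM (log2 fold change 0.16, SE 0.10, limma adjusted p = 0.13).

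**Figure D1:**
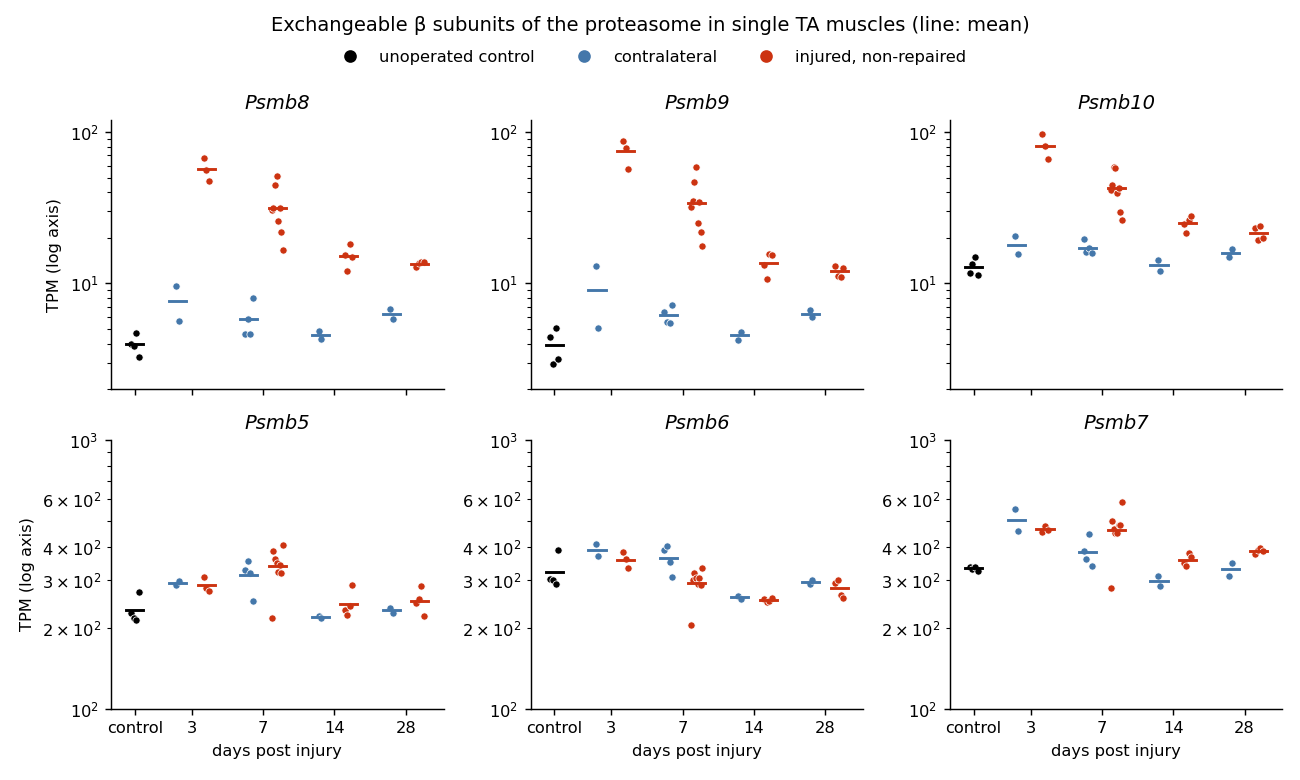
TPM on a log axis of the catalytic β subunit genes (Psmb8, Psmb9 and Psmb10 of the immunoproteasome and Psmb5, Psmb6 and Psmb7 of the standard core), 1 point per non-running, non-repaired muscle, in control, contralateral and injured groups by DPI. Psmb8 and Psmb9 lie between 2.92 and 5.1 TPM in control muscle and between 47.2 and 87.3 TPM in injured muscle at 3 DPI. The axis of Psmb5, Psmb6 and Psmb7 covers another range than that of Psmb8, Psmb9 and Psmb10, so spreads cannot be compared by eye between them.

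A gene was called when its Benjamini-Hochberg adjusted p in limma was under 0.05 and its log2 fold change on the log2(TPM + 1) scale was beyond 1. At 3 DPI, 14 of the 47 proteasome genes were called higher than in control muscle and none lower, where 48.3% of all 11328 tested genes were called higher and 4.24% lower. At 7 DPI 8 were called higher (background 45.6%), at 14 DPI 2 (25%) and at 28 DPI 3 (21.1%), again with none lower (backgrounds 2.42%, 0.547% and 0.212%). The median log2 fold change of the 47 genes was 0.78, 0.63, 0.21 and 0.27 over the 4 days, and that of all tested genes was 0.96, 0.91, 0.53 and 0.52. The share of proteasome genes called higher was below the background on every day. The 7 DPI count fell to 3 without 1 control muscle, the right TA of the second control rat, which had the fewest symbols above 1 TPM of the kept libraries (7866).

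Most tested genes were higher in injured than in control muscle on the TPM scale, and the direction of small changes depended on the scaling. With the size factors, under which all tested genes were centred near 0 (median 0.09, 0.08, 0.02 and 0.04), the median of the 47 genes was -0.34, -0.45, -0.47 and -0.40, and 3, 2, 2 and 0 genes were called higher (backgrounds 24.5%, 21.9%, 15.8% and 11.5%) and 2, 4, 2 and 0 lower (16.9%, 14.2%, 5.9% and 3.17%). By adjusted p alone 41, 41, 19 and 24 of the 47 genes were higher on the TPM scale (backgrounds 74.6%, 78.8%, 65.6% and 67.9%), but 29, 34, 38 and 34 were lower with size factors (backgrounds 37.7%, 38.8%, 36.3% and 33.2%). Psmb8 and Psmb9 kept their direction, with size-factor log2 fold changes of 2.52 and 2.93 at 3 DPI and 1.00 and 0.87 at 28 DPI. Psmb10 was 1.46 at 3 DPI and 0.07 at 28 DPI, and Psmb5, Psmb6 and Psmb7 turned to -0.83, -0.98 and -0.67 at 3 DPI.

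Ordered by role, the 3 immunoproteasome β genes had the largest changes at 3 DPI. The 11S activator genes lay within the range of the other classes, and no class was tested against another. Of the α ring genes, Psma5 and Psma2 were called at 3 DPI, with log2 fold changes of 1.39 and 1.19, and the median of the 7 genes was 0.95. Psma5 was 91.4 ± 20.04 TPM (SD, n = 4) in control muscle and 230 to 241 TPM in the 3 injured muscles. Of the 7 constitutive β genes, Psmb3 and Psmb4, which have no proteolytic activity, were called at 1.22 and 1.07, and the median was 0.78. The median of the 3 immunoproteasome β genes was 3.54.

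The 6 ATPases of the 19S particle had no called gene and a median of 0.54. Psmc5, 1 of these ATPases, was 257.7 TPM on average in control and 246 TPM in injured muscle (log2 fold change -0.06, SE 0.14, limma adjusted p = 0.66) and was the lowest of the 47 genes at 3 DPI, followed by Psmd12 at 0.13 and Psmb6 at 0.16. Of the 11 non-ATPase 19S subunits, Psmd8, Psmd11 and Psmd13 were called, at 1.63, 1.03 and 1.00, with a median of 0.60. Psmd8 was 69.1, 78.7, 73.1 and 48.2 TPM in the 4 control muscles and 217, 203 and 199 TPM in the injured muscles. It was the largest change outside the immunoproteasome.

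Of the 6 assembly chaperone genes, Psmd5 and Psmd10, which help to assemble the 19S base, were called at 1.54 and 1.01. Psmd5 was 15.2, 17.4, 19.2 and 9.49 TPM in control muscle and 42.3 to 50.2 TPM at 3 DPI. The other activators and the inhibitor, Psme3 (PA28γ), Psme4 (PA200) and Psmf1 (PI31), had no called gene and a median of 0.47. With size factors the medians at 3 DPI were -0.20 for the α ring, -0.37 for the constitutive β ring, -0.60 for the ATPases, -0.55 for the non-ATPase 19S subunits and -0.28 for the chaperones, while the immunoproteasome β genes stayed at 2.52 and the 11S activator at 0.31.

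**Figure D2:**
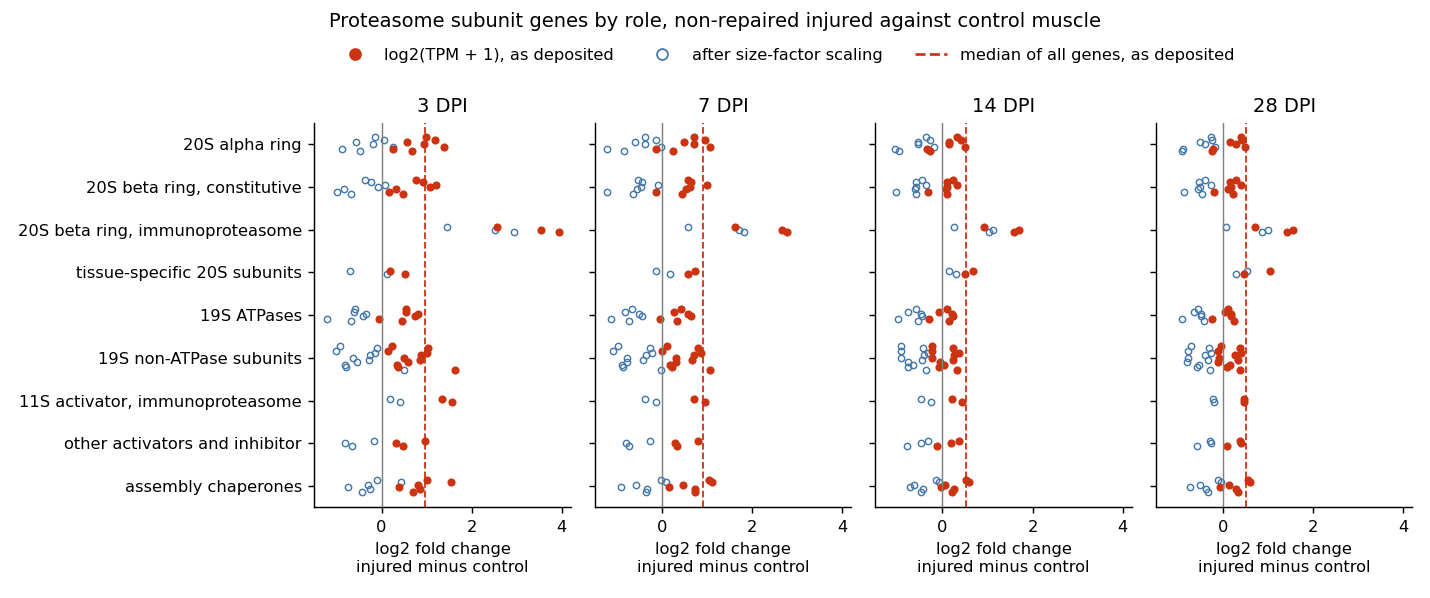
Log2 fold change of each proteasome gene, non-repaired injured against control muscle, by role in 4 panels for 3, 7, 14 and 28 DPI. Filled red points use TPM as deposited, open blue points use median-of-ratios size factors, and the dashed line is the median of all tested genes on the TPM scale (0.96, 0.91, 0.53 and 0.52). The immunoproteasome β genes lie above the line in each panel, and most other genes lie below it.

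The tissue-specific core subunits were near the floor of the table. Psma8, the testis counterpart of Psma7, was 2.90 ± 0.80 TPM (SD, n = 4) in control muscle and 3.38, 5.53, 5.18 and 6.95 TPM on average at 3, 7, 14 and 28 DPI, and was called at 28 DPI (log2 fold change 1.05, limma adjusted p = 8.7e-07, or 0.53 with size factors). Psmb11, the thymus-specific β5t, averaged below 1 TPM in control muscle and in the main injured group on each day.

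Psmb8 and Psmb9 then fell with time and were still higher than in control muscle at 28 DPI by adjusted p on both scales, whereas Psmb10, Psme1 and Psme2 were higher at 28 DPI on the TPM scale alone. Psmb8 in the non-repaired injured muscles ranged from 16.5 to 51.1 TPM with a median of 31.0 TPM at 7 DPI (n = 8), was 15.5, 12.1, 18.1 and 15.0 TPM at 14 DPI and 12.9, 13.6, 13.8 and 13.9 TPM at 28 DPI. Its log2 fold change over control muscle was 2.65 (SE 0.18), 1.70 (SE 0.20) and 1.56 (SE 0.20) on those days. No injured muscle of these groups overlapped a control muscle for Psmb8.

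Psmb9 followed the same course, with 17.8 to 59.2 TPM (median 33.3 TPM) at 7 DPI, 13.2, 10.7, 15.6 and 15.4 TPM at 14 DPI and 13.1, 11.2, 11.03 and 12.7 TPM at 28 DPI. Its log2 fold change was 2.77 (SE 0.20), 1.6 (SE 0.23) and 1.43 (SE 0.23). Psmb10 was 42.7 ± 11.6 TPM (SD, n = 8), 25.2 ± 2.70 TPM (SD, n = 4) and 21.6 ± 2.32 TPM (SD, n = 4), and its log2 fold change of 1.62 at 7 DPI went to 0.92 and 0.71, under the fold threshold. With size factors Psmb10 was at 0.58 at 7 DPI (limma adjusted p = 1.6e-05), no longer called, and at 0.26 at 14 DPI (limma adjusted p = 0.086).

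Psme1 and Psme2 were no longer called from 7 DPI, at log2 fold changes of 0.71, 0.22 and 0.46 for Psme1 and 0.95, 0.43 and 0.47 for Psme2. With size factors Psme1 was at -0.37, -0.47 and -0.21 and passed as lower at 7 and 14 DPI, and Psme2 was at -0.13, -0.25 and -0.20 and passed on none of these days. Psmb5 was 0.52, 0.08 and 0.12 and Psmb7 was 0.45, 0.11 and 0.22, values that all turned negative with size factors. At 7 DPI 1 of the 8 injured muscles lay well below the others for these standard subunits, at 218 TPM of Psmb5, 204 TPM of Psmb6 and 282 TPM of Psmb7. It came from rat TS5.011, of which 1 contralateral library is labelled 3 DPI in conflict with the rat's other labels.

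Outside the immunoproteasome, Psmd5 (1.12), Psmd8 (1.07), Psma5 (1.06), Psmd10 (1.04) and Psmb3 (1.00) were called at 7 DPI. By 14 DPI Psmb8 and Psmb9 were the called genes, and at 28 DPI Psma8 joined them. The lowest log2 fold changes belonged to Psma6, Psmb6 and Psmc5 at 7 DPI (-0.14, -0.13 and -0.05) and 14 DPI (-0.35, -0.33 and -0.29), and to Psma7, Psmc5 and Psma6 at 28 DPI (-0.24, -0.24 and -0.21). At 14 DPI 4 genes were lower by adjusted p alone (background 6.64%), Psma6, Psmb6 and Psmc5 among them with Psma7 at -0.27.

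Compared directly between days in injured muscle, Psmb9 fell by 1.17 on the log2 scale from 3 to 7 DPI and by 1.17 again from 7 to 14 DPI, the only proteasome gene called in either step (backgrounds 5.35% and 6.1% lower). With size factors the first step was -1.11 and still called, while the second was -0.79 (limma adjusted p = 0.00027) and no gene was called (background 1.66% lower). From 14 to 28 DPI limma called no gene of the 47 (backgrounds 0.106% higher and 0.353% lower), and 1 had an unadjusted p under 0.05. From 3 to 28 DPI 5 genes were called lower (background 24.3%), Psmb9 (-2.52), Psmb8 (-1.98), Psmb10 (-1.86), Psmd8 (-1.25) and Psme2 (-1.08). With size factors Psmb9 (-2.06), Psmb8 (-1.52) and Psmb10 (-1.39) were called lower (background 13.8%) and Psma8 (1.22) higher (background 9.12%).

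In each muscle the transcript ratio of each immunoproteasome gene to the gene it replaces was taken, which scaling of the libraries leaves unchanged apart from the 0.1 TPM added to both terms. These are ratios of RNA in bulk muscle, and the exchange of subunits in proteasome particles was not measured. At 3 DPI the Psmb9 to Psmb6 ratio was 16.8 times that of control muscle, the Psmb8 to Psmb5 ratio 11.3 times and the Psmb10 to Psmb7 ratio 4.47 times. At 7 DPI these were 8.98, 5.19 and 2.34 times, at 14 DPI 4.40, 3.55 and 1.81 times and at 28 DPI 3.54, 3.12 and 1.44 times. The groups did not overlap in any of the 12 comparisons with control muscle. Two-sided exact permutation tests over muscles gave an adjusted p of 0.029 at 3, 14 and 28 DPI, where 0.029 is also the smallest unadjusted p that the group sizes allow, and of 0.012, 0.012 and 0.016 for the 3 ratios at 7 DPI. With the pair of muscles of each control rat averaged, the fold differences kept their direction. That leaves 2 control values, for which the smallest exact permutation p is 0.1 at 3 DPI, 0.0222 at 7 DPI and 0.0667 at 14 and 28 DPI, so that no adjusted p could pass 0.05. Without replicate 1 or replicate 3 of the injured muscles at 28 DPI the Psmb10 to Psmb7 ratio had an adjusted p of 0.057 by the exact permutation test. At 3 DPI leaving out any control or injured muscle made a p under 0.05 unattainable.

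Against contralateral muscle most of these ratios were smaller. The Psmb9 to Psmb6 ratio was 9.68, 6.31, 3.02 and 1.99 times that of contralateral muscle at 3, 7, 14 and 28 DPI, the Psmb8 to Psmb5 ratio 7.67, 4.89, 2.91 and 1.97 times and the Psmb10 to Psmb7 ratio 4.85, 2.0, 1.58 and 1.15 times. The groups overlapped for Psmb10 to Psmb7 at 7 DPI, with an adjusted p of 0.057 by the exact permutation test, while the other ratios at 7 DPI had 0.012 by the same exact test. With 2 contralateral muscles the smallest exact p is 0.1 at 3 DPI and 0.0667 at 14 and 28 DPI, so that no ratio of these days could pass.

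Taken as a share of the summed TPM of these 6 catalytic genes, the transcripts of the immunoproteasome genes made up 2.31 ± 0.449% (SD, n = 4) in control muscle. In non-repaired injured muscle the share was 16.0 ± 2.15% (SD, n = 3) at 3 DPI, 9.20 ± 3.15% (SD, n = 8) at 7 DPI, 5.91 ± 0.523% (SD, n = 4) at 14 DPI and 4.88 ± 0.291% (SD, n = 4) at 28 DPI. Contralateral muscle of non-running, non-repaired rats averaged 2.81, 2.72, 2.79 and 3.22% on these days.

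Psmb8 and Psmb9 also led when contralateral muscle was the reference. At 3 DPI the 5 called proteasome genes (background 32.3%) were Psmb9 (3.01), Psmb8 (2.77), Psmb10 (2.11), Psme2 (1.37) and Psme1 (1.16), all of the immunoproteasome, and Psmb5, Psmb6 and Psmb7 were at -0.03, -0.12 and -0.11. Psmb8 was 9.66 and 5.65 TPM and Psmb9 was 12.9 and 5.1 TPM in the 2 contralateral muscles at 3 DPI, well under every injured muscle of that day. At 7 DPI 8 genes were called (background 45.3%): Psmb8 (2.22), Psmb9 (2.20), Psmd5 (1.28), Psmb10 (1.22), Psmd8 (1.16), Psma5 (1.15), Psma2 (1.08) and Psmb3 (1.03). At 14 DPI 2 were called (background 20.9%), Psmb8 at 1.53 and Psmb9 at 1.40. With size factors Psmb9 (2.46), Psmb8 (2.22) and Psmb10 (1.55) were called higher at 3 DPI (background 20.7%) and Psmc5 (-1.08) lower (background 13.5%). At 7 DPI Psmb8 (1.23) and Psmb9 (1.20) were then called higher (background 18.7%) and Psmb6 (-1.40), Psmc5 (-1.04) and Psma6 (-1.01) lower (background 12.9%). At 14 DPI none was called with size factors (background 10.5% higher), Psmb8 being at 0.97 (limma adjusted p = 0.00023) and Psmb9 at 0.84 (limma adjusted p = 0.0043).

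At 28 DPI limma called no proteasome gene against contralateral muscle (background 13.1%), while 14 passed as higher by adjusted p alone (background 47.1%). With size factors 1 gene passed as higher and 9 as lower (backgrounds 24.2% and 23.1%). Psmb8 (log2 fold change 1.00, SE 0.25, limma adjusted p = 0.00076) lay just under the fold threshold, with 6.74 and 5.86 TPM in contralateral and 12.9 to 13.9 TPM in injured muscle. Psmb9 was at 0.83 (SE 0.29, limma adjusted p = 0.013). With size factors Psmb8 was at 0.58 (limma adjusted p = 0.030) and Psmb9 at 0.41 (limma adjusted p = 0.19), so that Psmb9 no longer passed. The difference between days was itself tested. The injury effect against contralateral muscle was larger at 3 than at 28 DPI by 2.18 for Psmb9 (SE 0.41, limma adjusted p = 1.8e-05), 1.77 for Psmb8 (SE 0.36), 1.70 for Psmb10 (SE 0.28) and 1.08 for Psme2 (SE 0.28), the 4 proteasome genes called (background 14.5%). With size factors Psmb9, Psmb8 and Psmb10 were called (background 11.8%).

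The contralateral muscle was not constant for the rest of the proteasome. Summed over the 47 genes, the level was 8793 and 6998 TPM in the 2 contralateral muscles of non-running, non-repaired rats at 3 DPI, 7795 and 7456 TPM with MMG, 9804 and 9897 TPM in running and 9374 and 7023 TPM in running rats with MMG. In control muscle it was 5225, 5310, 5336 and 4928 TPM. All 8 contralateral muscles at 3 DPI stood above all 4 control muscles, above all 14 contralateral muscles at 7 DPI (4612 to 5260 TPM), all 8 at 14 DPI (4274 to 4805 TPM) and all 4 at 28 DPI (4659 to 5217 TPM). The injured muscles of all arms spanned 6922 to 9543 TPM at 3 DPI (n = 24), 5052 to 8505 TPM at 7 DPI (n = 24), 4977 to 7192 TPM at 14 DPI (n = 16) and 5305 to 6742 TPM at 28 DPI (n = 12). At 3 DPI 6 of the 8 contralateral muscles lay within the range of the injured ones, and both contralateral muscles of running, non-repaired rats lay above every injured muscle.

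**Figure D3:**
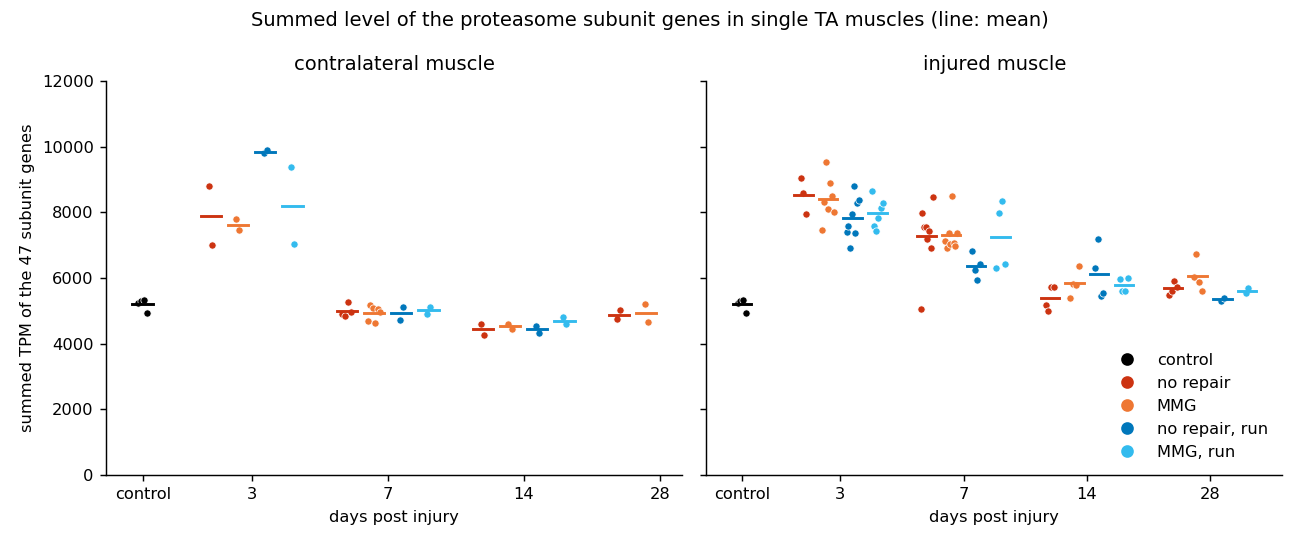
Summed TPM of the 47 proteasome genes, 1 point per muscle, by DPI and arm (repair by running), with control muscle at day 0, in a contralateral and an injured panel. Contralateral muscles lie between 6998 and 9897 TPM at 3 DPI and between 4274 and 5260 TPM on the later days.

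This difference was tested after the contralateral values had been seen, as the mean over the 4 arms of 3 against 7 DPI, both within the operated series. Limma called 7 proteasome genes higher at 3 DPI (background 1.69%), Psmd2 (1.41, SE 0.09, limma adjusted p = 2.0e-24), Psmd8 (1.21), Psmd3 (1.15), Psmd11 (1.10), Psmd1 (1.09), Psmd7 (1.06) and Psmd5 (1.02). The count rose to 12 without replicate 2 of the contralateral muscles of running rats with MMG at 3 DPI. Except for the chaperone Psmd5, these are subunits of the 19S particle, Psmd2 and Psmd1 being its large scaffold subunits. Psmd2 ranged from 259 to 383 TPM with a median of 315 TPM in the 8 contralateral muscles at 3 DPI, and from 104 to 149 TPM with a median of 116 TPM in the 14 at 7 DPI. Its level in control muscle was 159 to 168 TPM, and in the 24 injured muscles at 3 DPI 173 to 272 TPM. Psmd8 ranged from 117 to 219 TPM at 3 DPI and from 56.1 to 74.4 TPM at 7 DPI in contralateral muscle, without overlap.

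By adjusted p alone 39 of the 47 genes were higher in contralateral muscle at 3 than at 7 DPI and none lower (background 55.4% higher, 3.05% lower), with a median of 0.69 against 0.27 for all genes. All 11 non-ATPase 19S subunits (median 1.06), 7 of 7 α ring genes (0.94), 6 of 6 ATPases (0.68) and 6 of 7 constitutive β genes (0.61) passed. With size factors all 11 non-ATPase subunits, 7 of 7 α ring genes and 6 of 6 ATPases were still higher by adjusted p (31 of the 47 genes in all, background 16.3%, with 6 genes lower, background 20.2%), with medians of 0.67, 0.56 and 0.30, although Psmd2 (1.02) was then the 1 gene called (background 0.447%). The immunoproteasome genes had smaller differences, without a test of one class against the other. Psmb8 was at 0.18 (SE 0.13), Psmb10 at 0.09 (SE 0.10), Psme1 at 0.14 (SE 0.09) and Psme2 at 0.19 (SE 0.10), none past an adjusted p of 0.05, and Psmb9 at 0.35 (SE 0.15, limma adjusted p = 0.044). With size factors none of these 5 genes was higher, Psmb10 (-0.29, limma adjusted p = 0.0095) and Psme1 (-0.25, limma adjusted p = 0.034) passed as lower, and Psmb8, Psme2 and Psmb9 were at -0.17, -0.19 and 0.00. Psmb5 was at 0.09 (SE 0.08), Psmb6 at 0.31 (SE 0.06) and Psmb7 at 0.61 (SE 0.08), and with size factors at -0.30 (limma adjusted p = 0.024), -0.08 and 0.22. The immunoproteasome share of the catalytic TPM was 2.14 to 3.96% at 3 DPI and 2.39 to 4.28% at 7 DPI in contralateral muscle of the 4 arms.

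Other lists were read in the same contralateral comparison, where 1.69% of all genes were called higher and 55.4% passed as higher by adjusted p. Of 12 muscle atrophy ubiquitin ligase and FoxO genes 2 were called higher and 10 passed by adjusted p alone, of 12 proteasome cofactors 1 was called and 9 passed, of 16 leukocyte markers 2 were called and 9 passed, and of 9 fibroblast markers none was called and 5 passed. Of 12 fibre markers 1 was called higher and 1 lower, and 1 passed as higher and 3 as lower. With size factors 4 atrophy genes, 7 cofactors, 2 leukocyte markers and no fibroblast marker passed as higher (background 16.3%). Summed leukocyte markers were 88.5 to 352 TPM at 3 DPI and 66.6 to 207 TPM at 7 DPI in contralateral muscle, and fibroblast markers 643 to 1633 TPM and 299 to 2470 TPM. Summed fibre markers were 179920 to 240170 TPM in the 8 contralateral muscles at 3 DPI and 241270 to 285580 TPM in the 14 at 7 DPI, without overlap. The part of these in the proteasome difference was not tested.

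Against control muscle, contralateral muscle at 3 DPI over the 4 arms had 7 called genes (background 7.09%), Psmd8 (1.20), Psmd11 (1.08), Psmd3 (1.04), Psma5 (1.03), Psmd5 (1.02), Psmb9 (1.01) and Psmd13 (1.01), and 47 of 47 passed by adjusted p (background 69.9%). With size factors none was called and 12 were higher and 2 lower by adjusted p (backgrounds 22.2% and 22.1%). The count of called genes fell to 1 without the right TA of the second control rat, and to 2 without replicate 1 of the contralateral muscles of running rats with MMG or without replicate 1 of those of non-running, non-repaired rats. At 7 DPI no gene was called against control muscle (background 1.93% higher), 6 were higher and 5 lower by adjusted p (backgrounds 22.8% and 3.27%), and the median was -0.01. With size factors 4 were higher and 24 lower by adjusted p (backgrounds 19.8% and 16.2%), with a median of -0.20. In non-running, non-repaired rats alone, 1 gene, Psmd8 (1.06), was called at 3 DPI (background 6.37%) and 42 passed by adjusted p (background 53.7%), but none was called with size factors and 4 were higher and 1 lower by adjusted p (backgrounds 10.4% and 11%). Averaged over the 4 days limma called none (background 1.19%), with 5 genes higher at an adjusted p under 0.05 (background 13.3%) and 9 past an unadjusted p of 0.05. With size factors 1 was higher and 7 lower by adjusted p (backgrounds 12.2% and 8.76%), and the median moved from 0.07 to -0.13.

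No proteasome gene was called between MMG-repaired and non-repaired muscle. Averaged over the 4 days, non-running grafted minus non-repaired injured muscle ranged from -0.03 to 0.33 on the log2 scale over the 47 genes, none was called by limma (background 0.0265%), 10 had an unadjusted p under 0.05, and 3 passed an adjusted p of 0.05 (background 26.9%). These were Psmb9 (0.33, SE 0.11, limma adjusted p = 0.025), Psmb8 (0.31, SE 0.10, limma adjusted p = 0.020) and Psmd9 (0.13, SE 0.04, limma adjusted p = 0.016), a chaperone of 19S assembly. With size factors none of the 47 genes passed (background 0.00894%), Psmb9 being at 0.20, Psmb8 at 0.19 and Psmd9 at 0.01. Psmb10 was at 0.17 (SE 0.07, limma adjusted p = 0.064), and Psmb5, Psmb6 and Psmb7 were at -0.03, -0.01 and -0.03.

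The sizes are visible in the levels. Psmb8 in grafted muscle ranged from 55.9 to 84.7 TPM at 3 DPI (median 67.1 TPM, n = 7), 30.2 to 46.8 TPM at 7 DPI (median 40.0 TPM, n = 8), 12.8 to 22.02 TPM at 14 DPI (n = 4) and 16.2 to 26.0 TPM at 28 DPI (n = 4). At 28 DPI all 4 grafted muscles were above the 4 non-repaired ones for Psmb8, a log2 difference of 0.52 (SE 0.20) with a limma adjusted p of 1.00. By day no gene was called by limma (backgrounds 0%, 0.0883%, 0.0265% and 0% higher) or passed an adjusted p of 0.05, with 0, 5, 3 and 2 genes past an unadjusted p of 0.05. In running rats the grafted minus non-repaired difference ranged from -0.07 to 0.16, limma called no gene (background 0%) and none reached an unadjusted p of 0.05.

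Grafted muscle against contralateral muscle of grafted rats had 5, 8, 2 and 2 called genes at 3, 7, 14 and 28 DPI (backgrounds 37.2%, 42.9%, 25.6% and 18.8%), of which 5, 4, 2 and 2 were immunoproteasome genes. With size factors 3, 2, 1 and 1 were called higher (backgrounds 21.7%, 21.2%, 13.1% and 9.64%), all of the immunoproteasome and Psmb8 on each day, and 4 and 1 constitutive genes were called lower at 3 and 7 DPI (backgrounds 15.8% and 13.7%). The difference between the injury effects with and without MMG was called by limma for no proteasome gene on any day (background 0% on each day, so that no tested gene was called), with 0, 5, 0 and 1 genes at an unadjusted p under 0.05.

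No proteasome gene was called between running and non-running rats either. Averaged over the 4 days, running minus non-running non-repaired injured muscle ranged from -0.18 to 0.08, limma called none of the 47 genes (background 0%), none passed an adjusted p of 0.05 and 5 had an unadjusted p under 0.05. The lowest was Psmb5 (-0.18, SE 0.07, limma adjusted p = 0.33). The median of the 47 genes was -0.08, -0.14, 0.16 and -0.09 at 3, 7, 14 and 28 DPI, or -0.16, -0.13, 0.04 and 0.01 with size factors. The range was -0.46 to 0.27 at 7 DPI and -0.06 to 0.41 at 14 DPI. By day limma called no gene of the 47 (backgrounds 0%, 0%, 0.0177% and 0.00883% higher), none passed an adjusted p of 0.05, and 7, 17, 8 and 1 had an unadjusted p under 0.05, or 12, 17, 0 and 0 with size factors. Over the 4 days Psmb8, Psmb9 and Psmb10 were at 0.01 (SE 0.10), 0.08 (SE 0.12) and 0.03 (SE 0.08). In grafted muscle the range was -0.16 to 0.04, with none called (background 0%) and 3 genes at an unadjusted p under 0.05.

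The course of the immunoproteasome share was thus seen in each of the 4 arms. At 3, 7, 14 and 28 DPI it averaged 19, 10.9, 6.57 and 6.35% with MMG, 17.9, 12.3, 6.39 and 4.63% in running rats and 18.4, 11.4, 7.09 and 5.84% in running rats with MMG. Over all arms the injured muscles spanned 13.6 to 22.7% at 3 DPI (n = 24), 4.37 to 19.3% at 7 DPI (n = 24), 4.89 to 10.4% at 14 DPI (n = 16) and 4.46 to 7.35% at 28 DPI (n = 12). Every injured muscle assigned to a group was above every assigned contralateral muscle, the latter spanning 2.14 to 4.28% over all days. The 8 libraries of running rats at 28 DPI whose title and label disagree on the muscle entered no group, and whichever is right some of the injured muscles among them, whose shares start at 2.51% by title and 4.203% by label, lay under 4.28%.

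**Figure D4:**
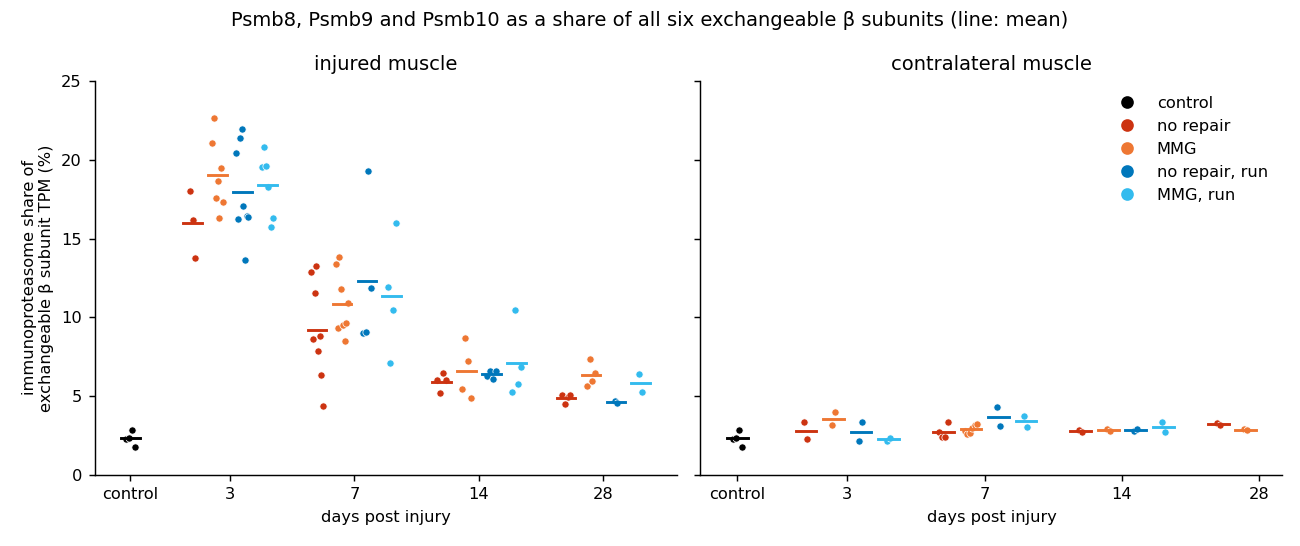
Share of the immunoproteasome genes Psmb8, Psmb9 and Psmb10 in the summed TPM of the 6 exchangeable catalytic β genes, in percent, 1 point per muscle by DPI and arm, in an injured and a contralateral panel. The injured muscles assigned to a group span 13.6 to 22.7% at 3 DPI and 4.46 to 7.35% at 28 DPI, and contralateral muscles stay between 2.14 and 4.28%.

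Genes that work with the proteasome were read from lists beside the members, against the 48.3%, 45.6%, 25% and 21.1% of all genes called higher than control muscle at 3, 7, 14 and 28 DPI. The lists were chosen with earlier results of these data known, so their shares are a description and not an independent test. All 12 class I antigen presentation genes were called higher than in control muscle at 3 DPI, and 11, 7 and 7 on the later days, with medians of 2.47, 2.10, 1.38 and 1.36. The peptide transporter genes Tap1 (3.49) and Tap2 (2.93), the chaperone of the peptide-loading complex Pdia3 (3.42) and the class I light chain B2m (2.90) had the largest log2 fold changes. With size factors 8, 7, 5 and 3 of the 12 were called, where 24.5%, 21.9%, 15.8% and 11.5% of all genes were. Of 12 tested interferon γ pathway genes 11, 9, 8 and 6 were called, led at 3 DPI by the transcription factor Irf8 (4.84), the chemokine Cxcl10 (4.10), the GTPase Gbp2 (2.95) and the transcription factor Irf1 (2.75), and with size factors 8, 7, 7 and 1 were called. The share called was above that of all genes on each day for both lists on the TPM scale, and with size factors on each day except 28 DPI for the interferon γ genes, where it was below.

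Proteasome cofactors and regulators changed less. Of 12 tested, 3, 2, 1 and 0 were called, a share below that of all genes on each day, Midn (1.49), which carries proteins to the proteasome without ubiquitin, Nfe2l2 (1.39) and Fbxo7 (1.07) at 3 DPI, followed by Akirin2 (0.76), a factor of nuclear import of proteasomes. Of 12 atrophy ubiquitin ligase and FoxO genes 4, 4, 0 and 1 were called higher, at 3 DPI the ligases Fbxo30 (1.51), Trim63 (1.41) and Cblb (1.29) and the transcription factor Foxo3 (1.06), with a share again below that of all genes on each day, and with size factors none of either list was called higher. Summed leukocyte markers in the main injured group fell from the 3 DPI level to 768 to 3304 TPM at 7 DPI, 488 to 593 TPM at 14 DPI and 271 to 878 TPM at 28 DPI, beside the fall of the immunoproteasome genes, and the part of this in that fall was not tested. The largest log2 fold changes among the leukocyte markers at 3 DPI were those of Lyz2 (7.93), Cd68 (7.36), Fcer1g (6.94) and Cd8a (6.08), and of 7 endothelial markers 5, 6, 5 and 3 were called higher, or 1, 0, 0 and 0 with size factors (backgrounds 24.5%, 21.9%, 15.8% and 11.5%).

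The Psma3 entry is uncertain, since the table lists Psma3l separately and RefSeq gives that symbol as a synonym of Psma3, so reads could be split between them. Psma3l, which the rule left out, was at 1.03, 0.54, -0.03 and -0.01 against control muscle at 3, 7, 14 and 28 DPI.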

How the data were processed

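The authors ran Kallisto at default parameters on RNA-Seq reads of rat TA muscle, against the GenBank rat annotation (build 6.0), and the submitters' processing notes name kallisto and DESeq without versions. The deposited values are TPM per gene symbol. They hold no counts. The study's methods give an average depth over libraries, but that of each library is unknown here, no counting error can be given, and the authors' minimum depth and count model could not be applied here. The listed symbols sum to 94.99 to 97.12% of the full TPM total, and 1 incomplete last entry was left out.

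Libraries were grouped by their labels. Of 138 libraries, 9 were left unassigned, 8 because the title and the label disagree on which muscle it is (running rats, 28 DPI) and 1 because its day label conflicts with those of the same rat, and 13 with fewer than 7000 symbols above 1 TPM were dropped. Libraries of 1 muscle were averaged (2 muscles). Genes whose group mean passed 1 TPM in any of 31 groups (11328, all 47 proteasome genes among them) were fitted on log2(TPM + 1) with limma 3.58.1 (R 4.3.3) in 1 model of 114 muscles (83 residual degrees of freedom, empirical Bayes with trend). P-values were adjusted over all tested genes by the Benjamini-Hochberg method. Calls needed an adjusted p under 0.05 and a log2 fold change beyond 1, as in the study's methods. Ratios, with 0.1 TPM added to both terms, were tested by two-sided exact permutation over muscles and adjusted over 12 tests. Replicates are muscles, and those of the control group come from 2 rats, so their spread is partly within animals.

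Injured and contralateral muscles of the same rat are pairs by animal. Over 34 such pairs the residuals correlated at 0.094 on average, against -0.0002 between rats, and the rat was tried as a random block (statmod 1.5.0, within-rat correlation 0.026). The rule for the members used symbols and no measured value, but the rule and the lists were set with earlier results of these data known. The genes named are the immunoproteasome genes and the β subunits they replace, the 3 highest and 3 lowest members against control muscle on each day, members called in other comparisons and up to 4 genes a list. Other called members and Psma3l are named beyond this rule, after their values were seen. Alternatives were median-of-ratios size factors on TPM, pseudocounts of 0.1 (fits) and 1 TPM (ratios), no filter, adjusted p alone, all libraries kept, each library as its own sample, the control muscles averaged per rat, a model of the compared groups alone, contralateral muscle as the reference, the block and each replicate left out. Size factors with adjusted p alone, and the contralateral comparison over 4 arms, were added after values were seen. The model was tested on simulated data. Permutation tests and tables used pandas 2.3.3 and numpy 2.4.6, and figures matplotlib 3.10.9, under Python 3.11.15.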

Additional observations from a re-analysis of the deposited data

Results flagged for a closer look

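In 55 sets of values, each the values of 1 gene or measure in 1 group of 4 to 10 muscles, a single muscle stood apart from the others of its group by Dixon's limits in 4, and chance gives about 1 in 20. The right TA of the second control rat had 389.4 TPM of Psmb6, the next highest control muscle having 304.65 TPM. The injured muscle of rat TS5.011 at 7 DPI was the lowest of the 8 non-repaired, non-running muscles for the standard catalytic subunits, with 217.9 TPM of Psmb5 (next 319.55 TPM), 204.2 TPM of Psmb6 (next 289.23 TPM) and 281.7 TPM of Psmb7 (next 450.44 TPM). A contralateral library of this rat is labelled 3 DPI, so the day of this muscle is less certain than that of the others.

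The injury effect against contralateral muscle differed between 3 and 28 DPI by an interaction contrast in limma for 4 genes, at 2.1832 for Psmb9, 1.7724 for Psmb8, 1.6977 for Psmb10 and 1.0779 for Psme2 on the log2 scale, each larger at 3 DPI. For Psmb5, Psmb6 and Psmb7 the same contrast was -0.14, -0.04 and -0.34 and was not called.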

How the results depend on the processing

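Scaling reversed the median of the proteasome genes in 10 of 13 comparisons, more than any other alternative run. With median-of-ratios size factors, 5, 4 and 0 genes were called in either direction against control muscle at 3, 14 and 28 DPI, 5 and 0 against contralateral muscle at 7 and 14 DPI, and 1 and 0 in contralateral muscle over 4 arms at 3 DPI against 7 DPI and control. Medians of the 47 genes reversed to -0.34, -0.45, -0.47 and -0.40 against control, -0.40, -0.37, -0.31 and -0.20 against contralateral muscle, -0.13 for contralateral against control over days and -0.0696 for graft against no repair. Single genes that reversed were Psmb5 (-0.83), Psmb6 (-0.98) and Psmb7 (-0.67) at 3 DPI, Psme1 (-0.37), Psme2 (-0.13), Psmb5 (-0.56) and Psmb7 (-0.64) at 7 DPI, Psme1 (-0.47), Psme2 (-0.25), Psmb5 (-0.61) and Psmb7 (-0.59) at 14 DPI, and Psme1 (-0.21), Psme2 (-0.20), Psmb5 (-0.56) and Psmb7 (-0.46) at 28 DPI. Adjusted p alone gave 41, 41, 23 and 26 genes in either direction against control, 22, 43, 27 and 14 against contralateral muscle, 5 for contralateral against control, 3 for graft, and 39 and 47 for contralateral muscle at 3 DPI over 4 arms. With size factors and adjusted p alone these were 36, 38, 41 and 38, then 33, 36, 27 and 10, then 8 for contralateral against control, 0 for graft, and 37 and 14 over 4 arms. With all libraries kept, 9 and 3 genes were called against control at 3 and 7 DPI, 3 and 39 against contralateral muscle, and 29 and 0 over 4 arms, and the median of contralateral against control was -0.35. No share of all genes stands beside these counts, so they show how calls move with the setting and not a trait of proteasome genes. A pseudocount of 0.1 gave 1 call each for injured against contralateral at 28 DPI and contralateral against control. With control muscles averaged per rat 3 genes were called for contralateral muscle at 3 DPI over 4 arms.

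Leaving out 1 replicate at a time gave 3 to 10 calls against control at 7 DPI, 0 to 1 against contralateral muscle at 28 DPI, 6 to 12 for contralateral muscle at 3 against 7 DPI and 1 to 9 at 3 DPI against control. Shares of all genes are not set beside these counts either. The cause of these shifts was not tested.

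The log2 ratios of Psmb8 to Psmb5, Psmb9 to Psmb6 and Psmb10 to Psmb7 kept their direction in every alternative run. With control muscles averaged per rat, which leaves group sizes too small for any adjusted p to pass, they stood at 3.49, 4.0 and 2.15 (3 DPI), 2.37, 3.14 and 1.22 (7 DPI), 1.82, 2.11 and 0.85 (14 DPI) and 1.63, 1.80 and 0.51 (28 DPI). With contralateral muscle as reference 10 did not pass, at 2.94, 3.28 and 2.28 (3 DPI), 1.00 for Psmb10 to Psmb7 (7 DPI), 1.54, 1.59 and 0.66 (14 DPI) and 0.98, 0.99 and 0.20 (28 DPI). At 3, 14 and 28 DPI these group sizes allow no p under 0.0667. Leaving out 1 replicate gave 3.33 to 3.62, 3.89 to 4.25 and 2.01 to 2.30 at 3 DPI and 0.47 to 0.59 for Psmb10 to Psmb7 at 28 DPI. Of such values 82 still passed and 23 did not, 2 of these being Psmb10 to Psmb7 at 28 DPI and the others at 3 DPI, where 6 muscles allow no p under 0.0667.

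With the rat as a replicate block, which pairs injured with contralateral muscles of the same animal, the counts of called genes were unchanged in all 13 comparisons, for example 14, 8, 2 and 3 against control muscle at 3, 7, 14 and 28 DPI.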

Other observations

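The 9 libraries that the labels put in no clear group entered no comparison. Titles and labels disagree on the muscle for 8 libraries of running rats at 28 DPI. In these the immunoproteasome share of the catalytic TPM was 4.219, 4.203, 4.774 and 6.426% in those titled as contralateral and 3.571, 3.327, 2.508 and 3.759% in those titled as injured. Symbols above 1 TPM numbered 9820 to 10161 in those titled as contralateral and 8707 to 9090 in those titled as injured. In the groups assigned at 28 DPI they numbered 9899 to 10525 in injured and 8912 to 9110 in contralateral muscle. Which muscle each of the 8 libraries holds was not tested. In the remaining library, titled as contralateral muscle of rat TS5.011, it was 3.807%.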
